A study of Homo sapiens with 12 samples.

Results

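The genes described here are 44 genes of autophagy and of the lysosome, taken by name from the deposited count table, which lists 57187 genes. They were grouped by role into the ULK1 initiation complex, the class III phosphatidylinositol 3-kinase complex, the suppliers of phagophore membrane, the conjugation machinery, the ATG8 family, the cargo receptors, the MiT/TFE transcription factors, the lysosomal membrane proteins and the lysosomal hydrolases. Of the 44 genes, 43 passed the filter on low counts, as did 17211 genes in all. *MAP1LC3A*, which encodes LC3A, did not pass: MDA-MB-231 gave 21 counts in the control, 30 in SIVA-WT and 13 in SIVA-D160N, and no library of HCC1954, OVCAR8 or SKOV3 had more than 2.

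RNA was sequenced from 4 human cancer cell lines in 3 conditions, with 1 library for each line and condition, 12 in all. The breast cancer lines are HCC1954 and MDA-MB-231, the ovarian cancer lines SKOV3 and OVCAR8 (SKOV-3 and OVAR-8 in the sample labels). The control is called parental in the labels and empty vector in the study's text. The SIVA-WT and SIVA-D160N cells were stable, polyclonal, hygromycin-selected pools that carried a CMV-driven plasmid for the wild type or for the mutant of *SIVA1*, a gene with a known role in apoptosis, and all lines were grown in RPMI-1640 medium with serum. The line is therefore the replicate, and no condition was repeated within a line. If the control cells were parental, as labelled, both contrasts with control also take in plasmid transfection and hygromycin selection. In those contrasts they cannot be told apart from SIVA. The contrast of SIVA-D160N with SIVA-WT is between transfected pools.

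Autophagy delivers cytoplasm and organelles to the lysosome. The ULK1 kinase complex starts the process, a class III phosphatidylinositol 3-kinase marks the forming membrane, and conjugation enzymes attach ATG8 proteins (the LC3 and GABARAP families) to the lipid of that membrane, where cargo receptors such as p62 bind. The closed autophagosome fuses with lysosomes, whose hydrolases digest the content, and transcription factors of the MiT/TFE family switch on many of these genes when nutrients are short.

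Total counts per library ran from 35791455 to 45890398, and 3 counts in a library correspond to between 0.0664 and 0.0856 CPM, the count scaled to a common library total. Levels below are CPM on TMM-adjusted library sizes, which compare one gene between libraries and not different genes. The HCC1954 control library had 0 counts of *SIVA1*, where the other control libraries had 1272 to 2419. The transfected HCC1954 libraries had 1646 in SIVA-WT and 930 in SIVA-D160N. In *CDH1*, given below, the control library was like the other HCC1954 libraries. The label does not account for its 0 counts, so the counts of members and the fitted values of the main genes are also given without it. Ratios within HCC1954 to the control cannot be had without it. The epithelial marker *CDH1* was at 695 to 816 CPM in HCC1954 and at most 0.493 CPM in the other lines. The other epithelial markers did not all follow it. The 5 epithelial markers summed to 5755 to 7527 CPM in HCC1954 and 2858 to 3504 in OVCAR8. The sums were 602 to 672 CPM in MDA-MB-231 and 794 to 879 in SKOV3. The Mullerian marker *PAX8* was at 61.1 to 243 CPM in the ovarian lines and at most 3.43 CPM in the breast lines. The luminal breast marker *GATA3* was at 42.8 to 49.7 CPM in HCC1954 but only 1.79 to 2.86 in MDA-MB-231, and *MUC16* (CA125) was at most 0.0274 CPM in OVCAR8 and 1.58 in SKOV3 against 66.1 to 115 in HCC1954. The 4 leukocyte markers summed to at most 1.7 CPM in any library, while the 5 endothelial and fibroblast markers summed to 46.2 to 91.6 CPM in HCC1954 and to at most 4.05 CPM elsewhere. In bulk RNA, fewer cells of a kind and less RNA per cell cannot be told apart.

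SIVA-D160N cells were compared with control cells over the 4 lines, a contrast that takes in transfection and selection if the control was parental. Most members were slightly lower in SIVA-D160N: 31 of 43 had a negative log2 fold change (72.1%, against 51.7% of all genes), with a median of -0.13 against -0.01 over all genes. Without MDA-MB-231 29 of 43 were lower (67.4%, against 52.2%) and the median was -0.05. The lowest fitted values belonged to *GABARAPL1* (-0.90), *ULK1* (-0.57), *MAP1LC3B* (-0.36), *CTSD* (-0.35), *WIPI1* (-0.35) and *CTSB* (-0.34), and the highest to *MITF* (0.37) and *ATG4A* (0.29). By edgeR's quasi-likelihood test, 0 of 43 members passed an FDR of 0.05 with a log2 fold change of at least 1.5 in size, where 0.00581% of all genes did. At an unadjusted p under 0.05 there were 8 members (18.6%), beside a background of 14.2%, of which 6 were lower and 2 higher. Without a fold threshold and at an FDR under 0.05, DESeq2 gave 2 members, edgeR's likelihood ratio test 2 and limma-voom 0. The share of all genes past that FDR alone is not given for these tests. With the fold threshold they called 0 members, beside 0.0697%, 0.302% and 0.157% of all genes in the same order. The count at an unadjusted p under 0.05 was 3 of 44 without the HCC1954 control library (6.82%, under the 10.9% of all genes) and 4 of 44 without HCC1954 altogether (9.09%, against 9.66%). It was 6 of 43 without MDA-MB-231 (14%, against 11.3%), 10 of 44 without OVCAR8 (22.7%, against 14.9%) and 12 of 44 without SKOV3 (27.3%, against 13.4%), and where 44 are counted *MAP1LC3A* also passed the filter.

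**Figure D1:**
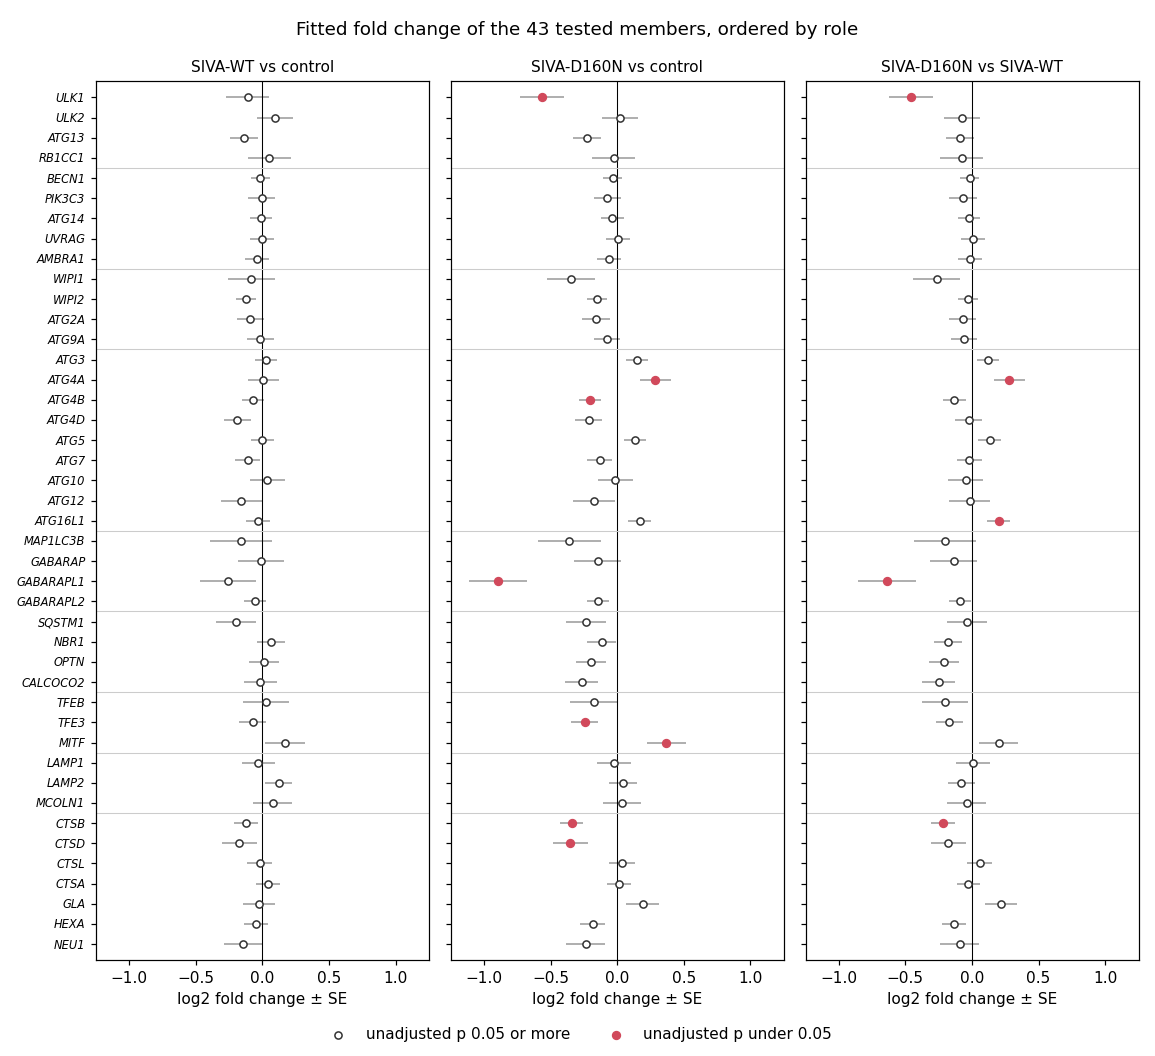
Fitted log2 fold change (x axis, with its standard error as a bar) of each of the 43 tested members (y axis, ordered by role, grey lines between roles) in the 3 contrasts over 4 lines. Filled points have an unadjusted p under 0.05: 0 members in SIVA-WT vs control, 8 in SIVA-D160N vs control and 5 in SIVA-D160N vs SIVA-WT, with *GABARAPL1* and *ULK1* farthest below 0 in the last 2 panels.

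*GABARAPL1* (ENSG00000139112, GRCh38 chr12:10212877-10223128) encodes a GABARAP-type ATG8 protein of the autophagosome membrane. In MDA-MB-231 it was at 39.0 CPM in the control, 22.4 in SIVA-WT and 14.2 in SIVA-D160N. In HCC1954 the values were 47.4, 52.7 and 19.1, in OVCAR8 18.1, 15.9 and 14.7, and in SKOV3 14.1, 12.2 and 9.68. SIVA-D160N was the lowest of the 3 conditions in every line, by a little in the ovarian lines and by more than 2-fold against the control in both breast lines. The fitted log2 fold change against control was -0.90 ± 0.22 (SE, 4 lines), with an adjusted p of 0.154 by edgeR's quasi-likelihood test. The call depends on the test: the adjusted p was 0.0117 by DESeq2 and 0.0112 by edgeR's likelihood ratio test, 0.0754 by limma-voom, and 0.000645 by the quasi-likelihood test when every gene with at least 1 count was kept. Leaving out a line moved the fitted value between -1.10 and -0.69, and without the HCC1954 control library it was -0.92. *GABARAPL1* and *ULK1* are also on gene lists that the study printed from these same libraries, so their direction here is not independent evidence for those lists.

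In HCC1954 the sum of the endothelial and fibroblast markers was also lowest in SIVA-D160N: it was 91.6 CPM in the control, 79.0 in SIVA-WT and 46.2 in SIVA-D160N. Most of it was *PECAM1* (62.8, 60.2 and 32.6 CPM) and *CDH5* (25.4, 15.7 and 12.5 CPM). Of the 5 markers 3 passed the filter on low counts and all 3 had negative values in SIVA-D160N vs control over the 4 lines (*PECAM1* -1.19, *VWF* -0.95 and *CDH5* -0.58), while *DCN* had 0 counts in HCC1954. The part of these transcripts in the *GABARAPL1* value was not tested.

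**Figure D2:**
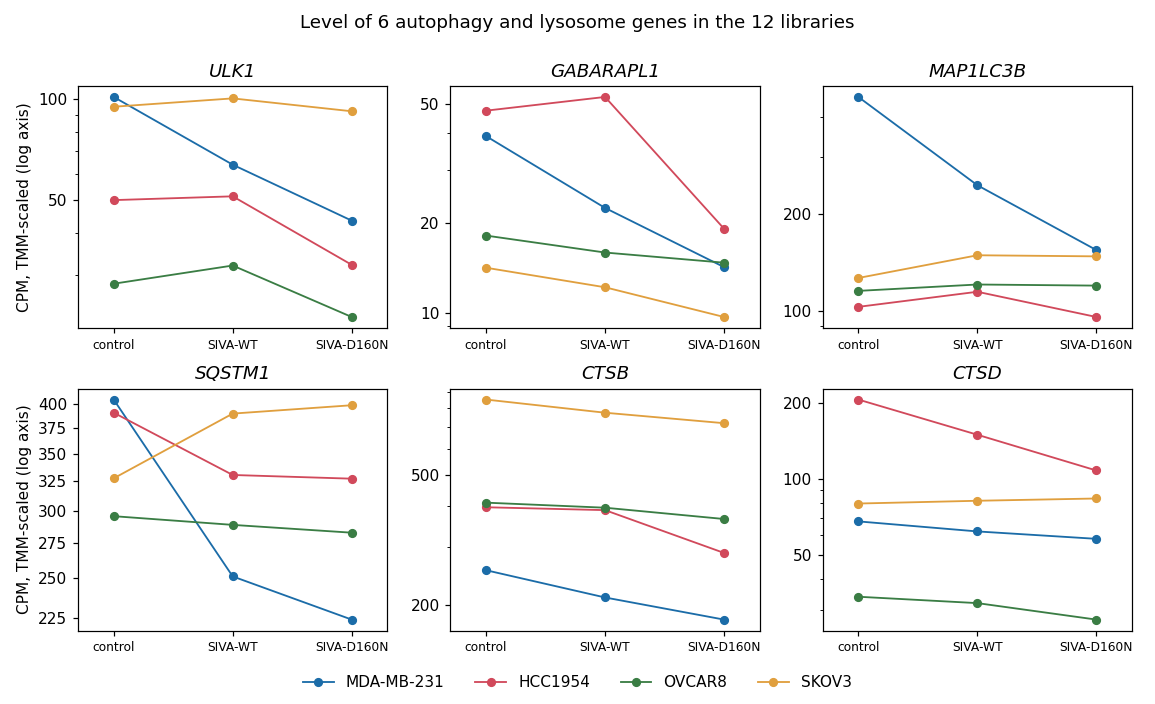
Level of 6 members in each library (y axis, TMM-scaled CPM on a log axis that differs between panels) by condition (x axis), with 1 point a library and a line joining the libraries of one cell line. *GABARAPL1* and *CTSB* were lowest in SIVA-D160N in all 4 lines, *MAP1LC3B* was at 461 CPM in the MDA-MB-231 control and 155 in SIVA-D160N with little difference in the other lines, and *SQSTM1* was higher in SIVA-D160N than in control in SKOV3.

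The other ATG8 genes had smaller differences in most lines. *MAP1LC3B*, which encodes LC3B, the usual marker of autophagosomes, was at 461 CPM in the MDA-MB-231 control, 246 in SIVA-WT and 155 in SIVA-D160N. In the other lines its range over the 3 conditions was 96.1 to 115 CPM in HCC1954, 116 to 121 in OVCAR8 and 127 to 149 in SKOV3. The MDA-MB-231 libraries thus covered a wider range than those of the other lines, and the contrast over 4 lines was -0.36 ± 0.24 (SE), with an adjusted p of 0.515 by edgeR's quasi-likelihood test. *MAP1LC3B2*, a near-identical copy, had 6 to 100 counts a library beside 3366 to 20862 of *MAP1LC3B*. *GABARAPL2* (GATE-16) was lower than the control in SIVA-D160N in all 4 lines, with within-line log2 ratios from -0.35 to -0.04. *GABARAP* was at only 2.9 to 6.55 CPM, and its value is uncertain, since 35.4% of its exonic bases overlap another gene of the table on the same strand and an overlap can leave reads uncounted.

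*ULK1* (ENSG00000177169, GRCh38 chr12:131894622-131923150) encodes the kinase that starts autophagy. Its level was 102, 63.8 and 43.5 CPM in control, SIVA-WT and SIVA-D160N of MDA-MB-231. The same conditions gave 50.05, 51.4 and 32.1 CPM in HCC1954, 28.2, 31.9 and 22.4 in OVCAR8, and 95.1, 101 and 92.2 in SKOV3. SIVA-D160N was the lowest condition in all 4 lines, but in SKOV3 the within-line log2 ratio to control was only -0.04, against -1.23 in MDA-MB-231. The fitted log2 fold change was -0.57 ± 0.17 (SE, 4 lines), with an adjusted p of 0.206 by edgeR's quasi-likelihood test, 0.0609 by DESeq2 and 0.0123 by the quasi-likelihood test with every gene of at least 1 count kept. Without MDA-MB-231 it was -0.33, and without the HCC1954 control library -0.58. Of the other initiation genes, *ATG13* was at -0.23 (unadjusted p = 0.053 by edgeR's quasi-likelihood test), and *ULK2* was at 0.02. The scaffold *RB1CC1* (FIP200) was at -0.03, with within-line log2 ratios of opposite sign: -0.69 in MDA-MB-231, -0.17 in SKOV3, 0.40 in HCC1954 and 0.41 in OVCAR8.

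The promoters of *ULK1* and *GABARAPL1* were looked at because these 2 genes had the lowest fitted values. The bases are from RefSeq's promoter table for GRCh38.p14, which holds 250 bases before and 50 after each start. It holds 35116 promoters in all and matched 37 of the 44 members, without *CTSB*, *MAP1LC3A*, *LAMP2*, *UVRAG*, *ATG4D*, *HEXA* and *RB1CC1*. Both genes are on the plus strand. The 100 bases before each start are printed 5′ to 3′, chr12:10212777-10212876 and chr12:131894522-131894621, with GC boxes (GGGCGG or its reverse complement) in capitals.
GABARAPL1: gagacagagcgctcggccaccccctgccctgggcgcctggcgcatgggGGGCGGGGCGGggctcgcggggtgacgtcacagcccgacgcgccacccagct
ULK1: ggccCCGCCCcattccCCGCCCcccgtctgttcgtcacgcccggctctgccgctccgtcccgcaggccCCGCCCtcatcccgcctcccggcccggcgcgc
GC boxes were found in 29 of the 37 members and in 45% of all promoters. For every motif here and below, a member counts if any of its promoters holds the motif. The 37 members have 48 promoters, while the background share is over single promoters. None of the other motifs searched on both strands was in the promoters of *ULK1* and *GABARAPL1*. These were the E-box CACGTG, the FOXO motif GTAAACA, the AP-1 motif TGACTCA, the ATF4 composite core TGATGNAA and the antioxidant response element core TGACNNNGC. Motifs outside this list were not searched, such as TGACGTCA, which can be read in the *GABARAPL1* window. The ATF4 core was in 0 of 37 members and in 3.62% of all promoters, and the antioxidant core, in 13.3% of all promoters, was in 7 members with *MAP1LC3B* among them. The FOXO motif was in 2 members (3.42% of all promoters) and the AP-1 motif in 1 (4.95%).

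The class III kinase genes stayed close to 0, with a median log2 fold change of -0.04 over 5 genes, none at an unadjusted p under 0.05. *BECN1* (beclin 1) stayed between 116 and 122 CPM in MDA-MB-231 and between 82.1 and 83.9 in SKOV3. All 4 genes of phagophore membrane supply had negative values, with a median of -0.16. *WIPI1*, a reader of the lipid that the class III kinase makes, was at 81.0, 54.8 and 43.2 CPM in control, SIVA-WT and SIVA-D160N of MDA-MB-231. In HCC1954 it was 28.9, 28.4 and 18 CPM, while OVCAR8 and SKOV3 had slightly more in SIVA-D160N than in control. *WIPI1* was thus lower in SIVA-D160N in the breast lines and not in the ovarian ones. It was at -0.35 ± 0.18 (SE) over 4 lines and at -0.31 without the HCC1954 control library. Genes on the opposite strand overlap more than 10% of the exonic bases in 10 members. The shares were 28.1% in *WIPI1*, 23.4% in *CTSD* and 22.4% in *SQSTM1*, and the strand setting of the counts is not given.

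The conjugation machinery was split, with 4 of 9 genes higher and 5 lower. *ATG4A* and *ATG4B* are proteases that cut ATG8 precursors and free lipidated ATG8, and they had opposite signs: *ATG4A* was at 0.29 ± 0.12 (SE, unadjusted p = 0.0316, adjusted p = 0.312) and *ATG4B* at -0.20 ± 0.09 (unadjusted p = 0.0356, adjusted p = 0.322) by edgeR's quasi-likelihood test. *ATG4A* was at 8.16 CPM in the MDA-MB-231 control and 11.7 in SIVA-D160N, and at 26 and 33.6 CPM in HCC1954. In OVCAR8 the same 2 conditions gave 14.7 and 14.5 CPM and in SKOV3 6.28 and 7.71 CPM, so that it was higher in 3 of 4 lines. *ATG16L1*, *ATG3* and *ATG5*, which act together to place ATG8 on lipid, had values of 0.17, 0.15 and 0.13. *ATG12* differed by line: it was at 437, 292 and 238 CPM in control, SIVA-WT and SIVA-D160N of SKOV3, but at 53.4, 57.2 and 64.4 CPM in OVCAR8.

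All 4 cargo receptor genes had negative values, with a median of -0.22, and none had an unadjusted p under 0.05. *SQSTM1*, which encodes p62, was at 405, 251 and 224 CPM in MDA-MB-231 and 391, 330.4 and 327 CPM in HCC1954, in the order control, SIVA-WT and SIVA-D160N. In OVCAR8 it was 296, 289 and 283 CPM, and in SKOV3 it was 327, 389.8 and 399 CPM. SKOV3 was the line with the opposite direction, and the 4-line value was -0.24 ± 0.15 (SE). *CALCOCO2* (NDP52) was at 164, 137 and 97.4 CPM in MDA-MB-231, and *NBR1* at 399, 357 and 283 CPM. In MDA-MB-231 the 3 genes shared the order control above SIVA-WT above SIVA-D160N.

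The MiT/TFE genes were mixed. *TFE3* was at -0.24 ± 0.10 (SE, unadjusted p = 0.0368, adjusted p = 0.325 by edgeR's quasi-likelihood test), with 146 CPM in the MDA-MB-231 control and 95.4 in SIVA-D160N, and it was at -0.12 without that line. *MITF* was at 0.37 ± 0.15 (unadjusted p = 0.0293, adjusted p = 0.304) and was higher in SIVA-D160N than in control in all 4 lines, from 6.13 to 6.37 CPM in MDA-MB-231, 9.21 to 15.2 in HCC1954, 4.19 to 5.26 in OVCAR8 and 15 to 18.8 in SKOV3. Without the HCC1954 control library *MITF* was at 0.31 (adjusted p = 0.538 by the same test). *TFEB* was at -0.18 ± 0.17. *LAMP1*, *LAMP2* and the calcium channel gene *MCOLN1*, which mark the lysosomal membrane, had values of -0.02, 0.04 and 0.04. *LAMP1* nonetheless ran in opposite directions in SKOV3 (226 CPM in control, 331 in SIVA-D160N) and HCC1954 (225 and 171), and its fitted value was 0.08 without the HCC1954 control library.

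The hydrolases split by gene. *CTSB* (cathepsin B, ENSG00000164733, on chromosome 8 of GRCh38, from 11842524 to 11868087) was the member with the second smallest p. Its level in control, SIVA-WT and SIVA-D160N was 255, 210.5 and 180.04 CPM in MDA-MB-231 and 398, 389.9 and 288 CPM in HCC1954. In OVCAR8 it was 411, 397 and 366 CPM, and in SKOV3 851, 775 and 720.1 CPM. The order was the same in all 4 lines, control above SIVA-WT above SIVA-D160N, and the fitted log2 fold change of SIVA-D160N against control was -0.34 ± 0.09 (SE). Its adjusted p was 0.168 by edgeR's quasi-likelihood test, 0.0221 by DESeq2 and 0.0482 by edgeR's likelihood ratio test, and 0.0737 by the quasi-likelihood test on every gene with at least 1 count. Without the HCC1954 control library the fitted value was -0.34, with an adjusted p of 0.327 by edgeR's quasi-likelihood test.

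*CTSD* (cathepsin D) was at 206, 149.6 and 108 CPM in HCC1954, in the same order of conditions. In MDA-MB-231 it was at 67.7, 61.8 and 57.7 CPM, in OVCAR8 at 34.0, 32.1 and 27.6 CPM and in SKOV3 at 79.7, 81.8 and 83.5 CPM. It was lower in 3 lines and slightly higher in SKOV3, and HCC1954 carried most of the 4-line value of -0.35 ± 0.13 (unadjusted p = 0.0216, adjusted p = 0.278 by edgeR's quasi-likelihood test), which was -0.15 without that line and -0.20 without its control library. The endothelial markers given above were lowest in the same HCC1954 library, and their part in this value was not tested. Of its exonic bases, 27.3% overlap other genes of the table on the same strand. *CTSL*, *CTSA* and *GLA* (cathepsin L, the protective protein cathepsin A and alpha-galactosidase A) were at 0.04, 0.01 and 0.19, and *HEXA* and *NEU1* (a hexosaminidase subunit and a sialidase) at -0.19 and -0.24.

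The E-box was searched because MiT/TFE factors bind it in the promoters of lysosomal genes. CACGTG was found in 7 of the 37 matched members, *ATG14*, *ATG3*, *LAMP1*, *MCOLN1*, *CTSD*, *CTSA* and *NEU1*, and in 7.26% of all promoters. The longer form TCACGTGA was found in 4 of 37, *ATG3*, *LAMP1*, *MCOLN1* and *CTSA*, and in 0.98% of all promoters. Windows before the start of 4 of these genes are printed 5′ to 3′ in the direction of the gene (RefSeq, GRCh38.p14), with E-boxes in capitals and the flanking T and A where the longer form is whole. They are chr19:7522571-7522623, chr20:45891281-45891327 and chr13:113297035-113297228 on the plus strand and chr11:1763957-1763986 on the minus strand.
MCOLN1: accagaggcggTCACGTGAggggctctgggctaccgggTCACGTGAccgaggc
CTSA: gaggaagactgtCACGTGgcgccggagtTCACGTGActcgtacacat
LAMP1: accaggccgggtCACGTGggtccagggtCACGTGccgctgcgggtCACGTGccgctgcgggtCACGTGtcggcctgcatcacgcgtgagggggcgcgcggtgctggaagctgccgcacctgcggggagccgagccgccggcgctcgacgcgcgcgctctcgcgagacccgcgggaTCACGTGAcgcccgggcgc
CTSD: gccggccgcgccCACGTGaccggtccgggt
*MCOLN1* has 2 copies of the longer form and *LAMP1* has 5 E-boxes in its window. In SIVA-D160N vs control, 4 of the 7 members with an E-box were lower and 3 higher, with a median of -0.02, and 23 of the 30 matched members without one were lower, with a median of -0.14. The genes with the longer form were at 0.15 (*ATG3*), 0.04 (*MCOLN1*), 0.01 (*CTSA*) and -0.02 (*LAMP1*), and the lowest of the 7 was *CTSD* at -0.35.

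SIVA-WT cells were compared with control cells, with the same limit on transfection and selection. None of the 43 members passed the thresholds by edgeR's quasi-likelihood test, with 0% of all genes called, and 0 had an unadjusted p under 0.05, where 2.54% of all genes did. DESeq2, limma-voom and edgeR's likelihood ratio test also gave 0 at an FDR under 0.05 and 0 at an unadjusted p under 0.05. Under these tests 2.26%, 3.22% and 3.15% of all genes had such an unadjusted p. The smallest p belonged to *ATG4D* (-0.19 ± 0.10), *WIPI2* (-0.12 ± 0.08), *CTSB* (-0.12 ± 0.09), *CTSD* (-0.17 ± 0.13) and *SQSTM1* (-0.20 ± 0.15), then *ATG13*, *GABARAPL1* and *LAMP2*. Several of these rest on 1 line: without MDA-MB-231 *SQSTM1* was at -0.01, *GABARAPL1* at -0.06, *ATG13* at -0.05 and *CTSB* at -0.07, and without HCC1954 *CTSD* was at -0.06 and *ATG4D* at -0.10. *ULK1* was at -0.11 and *GABARAPL1* at -0.26, and *ULK1* was lower in 1 line and higher in the other 3. Of the 43 members, 30 were lower (69.8%, against 51.6% of all genes), with a median of -0.03 against -0.01. This excess was mostly absent without MDA-MB-231, where 23 of 43 were lower (53.5%, against 50.6%) with a median of -0.01. Without the HCC1954 control library 27 of 44 were lower (61.4%, against 49.9%), and 0 had an unadjusted p under 0.05, beside 2.9% of all genes.

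The mutant was also compared with the wild type, a contrast that takes in the D160N change and any difference in *SIVA1* level between the pools. *SIVA1* was at 68.2 CPM in SIVA-D160N and 80.7 in SIVA-WT of MDA-MB-231, and at 26.5 and 38.2 in HCC1954. In OVCAR8 the same conditions gave 161 and 177 CPM and in SKOV3 112 and 106 CPM. The part of this level in the members' values was not tested. By edgeR's quasi-likelihood test 0 of 43 members passed the thresholds, with 0% of all genes called. At an unadjusted p under 0.05 there were 5 members (11.6%), beside 6.88% of all genes. DESeq2, limma-voom and the likelihood ratio test gave 5, 5 and 4, beside 6.18%, 8.35% and 7.38% of all genes. The 3 lower ones were *GABARAPL1* (-0.64 ± 0.22), *ULK1* (-0.46 ± 0.16) and *CTSB* (-0.22 ± 0.09), and the 2 higher ones *ATG4A* (0.28 ± 0.12) and *ATG16L1* (0.20 ± 0.09). *CALCOCO2* (-0.25), *OPTN* (-0.21) and *GLA* (0.22) came next. Without HCC1954 the count at an unadjusted p under 0.05 was 0, beside 1.93% of all genes, and the *GABARAPL1* value was -0.35. The count was 3 without MDA-MB-231 (6.98%, against 6.16% of all genes), 3 without SKOV3 (6.82%, against 6.07%), 5 without OVCAR8 (11.4%, against 6.33%) and 4 without the HCC1954 control library (9.09%, against 6.51%). In all, 34 of 43 members were lower (79.1%, against 50.6% of all genes), with a median of -0.07 against 0 over all genes to the 2 decimals given. Both contrasts with SIVA-D160N share its 4 libraries, and both contrasts with the control share the control libraries, so they are not independent of each other.

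The direction was the same in all 4 lines for 7 members in SIVA-D160N vs control (16.3%, against 16% of all genes): *ULK1*, *WIPI2*, *ATG4D*, *GABARAPL1*, *GABARAPL2* and *CTSB* were lower and *MITF* higher. In SIVA-D160N vs SIVA-WT it was the same for 16 members (37.2%, against 23.8%). The 10 lower ones were *ULK1*, *WIPI1*, *WIPI2*, *ATG4B*, *MAP1LC3B*, *GABARAPL1*, *NBR1*, *OPTN*, *TFE3* and *CTSB*, and the 6 higher ones were *ATG3*, *ATG4A*, *ATG5*, *ATG16L1*, *CTSL* and *GLA*.

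Within a line each condition has 1 library, so a difference of at least 2-fold is a description with no replicate check. In MDA-MB-231, SIVA-D160N was at least 2-fold below control for 3 members, *ULK1*, *MAP1LC3B* and *GABARAPL1*, beside 6.82% of all genes in either direction. In HCC1954 it was so for 1, *GABARAPL1*, beside 10.2%, and for 0 in OVCAR8 (background 3.51%) and SKOV3 (8.74%). Between SIVA-WT and control no member was 2-fold apart in any line, beside 4.57%, 4.49%, 3.16% and 5.79% of all genes in MDA-MB-231, HCC1954, OVCAR8 and SKOV3. Between SIVA-D160N and SIVA-WT 1 was, *GABARAPL1* in HCC1954, beside backgrounds of 3.83%, 8.78%, 2.78% and 3.09% in the same order. These shares are near or under the background. By direction, 33 of 43 members were lower than control in MDA-MB-231 (76.7%, against 52.8% of all genes), with a median log2 ratio of -0.23. In HCC1954 28 were lower (65.1%, against 49.5%), with a median of -0.14. In OVCAR8 27 were lower (62.8%, against 53.8%) with a median of -0.06, and in SKOV3 16 (37.2%, against 49.7%) with a median of 0.05. The difference between single lines was not tested.

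**Figure D3:**
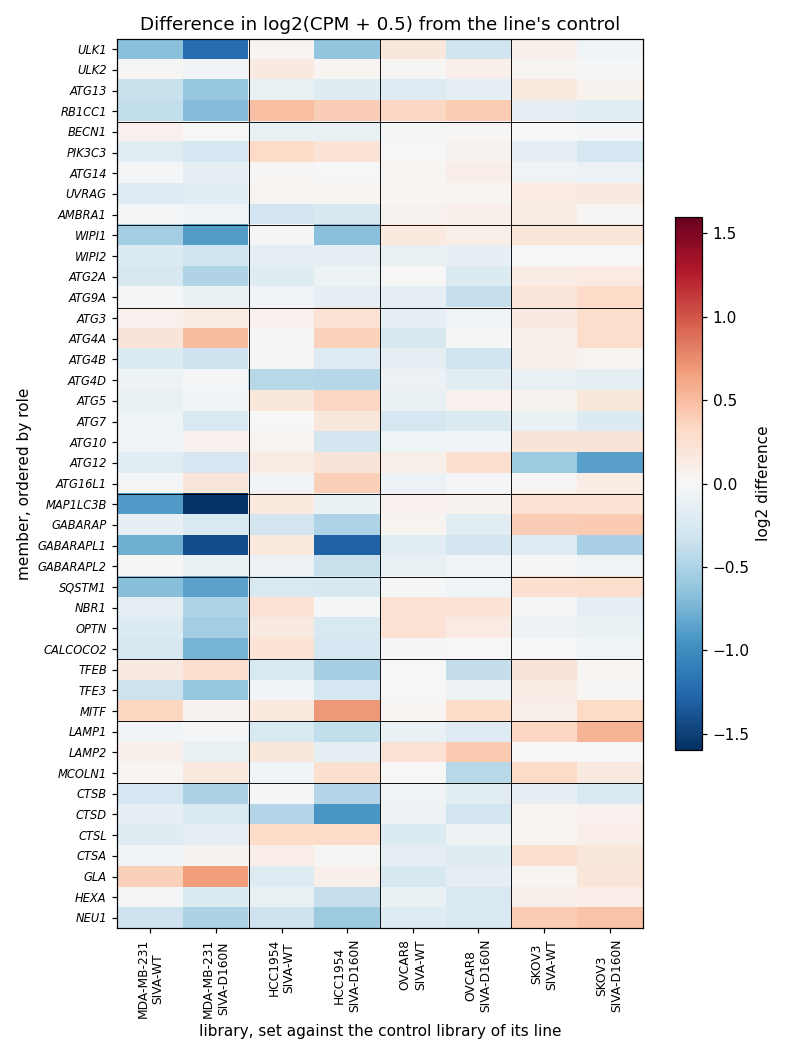
Difference in log2(CPM + 0.5) of each of the 43 tested members (rows, ordered by role, black lines between roles) between a transfected library and the control library of its line (8 columns, 1 library each). Blue is lower and red is higher: the deepest blue is in the MDA-MB-231 SIVA-D160N column, and the SKOV3 columns hold more red than blue.

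The difference in the SIVA-D160N response between the ovarian and the breast lines was tested as an interaction. By edgeR's quasi-likelihood test 0 of 43 members passed an FDR of 0.05, with 0.00581% of all genes called, and the lowest adjusted p among members was 0.68. At an unadjusted p under 0.05 there were 7 members (16.3%), beside 5.06% of all genes. All 7 had the lower SIVA-D160N value in the breast lines: *WIPI1* (0.95 log2 units higher in the ovarian lines), *GABARAPL1* (0.97), *ULK1* (0.77), *SQSTM1* (0.67), *NEU1* (0.64), *MAP1LC3B* (1.01) and *CALCOCO2* (0.50). Without the HCC1954 control library 11 of 44 members had an unadjusted p under 0.05 (25%, against 7.64% of all genes), 10 of them lower in the breast lines, with a lowest adjusted p of 0.188 by the same test. A tissue here is 2 lines: the count was 3 without MDA-MB-231 (6.98%, against 7.24%), 9 without HCC1954 (20.5%, against 6.74%), 6 without OVCAR8 (13.6%, against 5.49%) and 2 without SKOV3 (4.55%, against 3.31%), each at 0 past an FDR of 0.05.

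The cell lines differed far more than the conditions. The median range over the 4 line means was 1.32 log2 units for the members, against 1.6 for all genes, and the median range over the 3 condition means was 0.17 against 0.21. The line range was the larger for 43 of 43 members and for 99.1% of all genes. A difference between any lines passed an FDR of 0.05 for 40 of 43 members by edgeR's quasi-likelihood test, beside a background of 93.9%, and the 3 that did not were *RB1CC1*, *SQSTM1* and *ATG5*. These p-values measure the spread between the 3 libraries of a line, which also differ in condition.

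**Figure D4:**
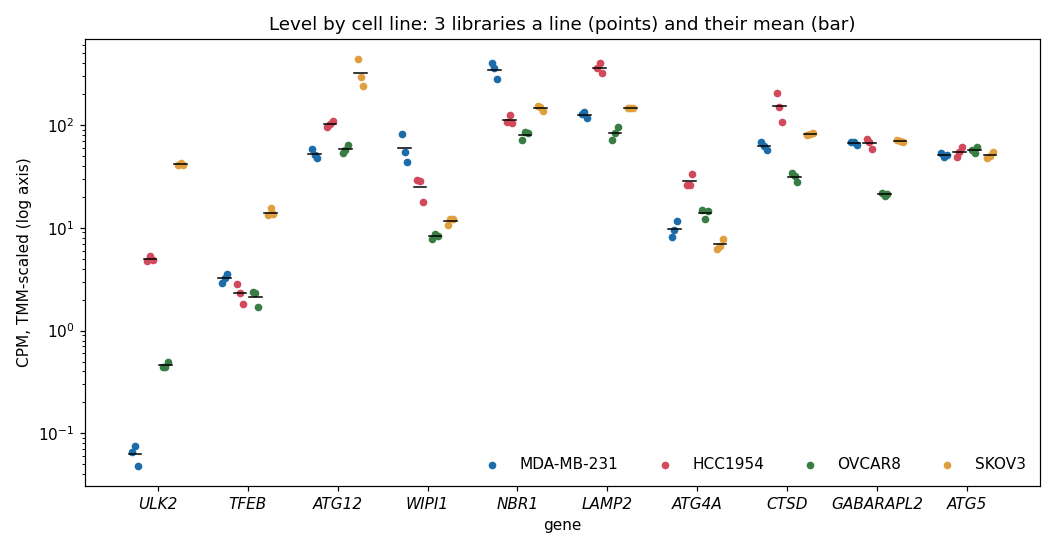
Level of 9 members that passed the thresholds in a line contrast, and of *ATG5*, the member with the smallest line range (y axis, TMM-scaled CPM on a log axis), in the 3 libraries of each line (points, control, SIVA-WT and SIVA-D160N from left to right) with their mean (bar). The line means of *ULK2* ran from 0.0636 CPM in MDA-MB-231 to 41.5 in SKOV3, while the line means of *ATG5* were between 51.0 and 57.2 CPM.

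*ULK2*, the paralog of *ULK1*, separated the lines most. Its mean was 41.5 ± 0.99 CPM in SKOV3 (SD, n = 3), 4.93 ± 0.30 in HCC1954, 0.461 ± 0.032 in OVCAR8 and 0.0636 ± 0.0138 in MDA-MB-231, where it rested on 2 or 3 counts a library. The 4 lines did not overlap. It was called in each line against the mean of the other 3, and its fitted log2 values (-6.10 in MDA-MB-231, -2.36 in OVCAR8, 2.18 in HCC1954 and 6.28 in SKOV3) all take in MDA-MB-231 and so depend on the prior count.

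Each line was set against the mean of the other 3 by edgeR's quasi-likelihood test. SKOV3 had 32 of 43 members at an FDR under 0.05 (background 69.2%), of which 3 also passed a log2 fold change of 1.5 (background 23.4%). Besides *ULK2* these were *TFEB*, at 14.1 ± 1.19 CPM (SD, n = 3) where the other line means were 2.13 to 3.23, with a log2 fold change of 2.48, and *ATG12*, at 322 ± 103 CPM against 52.6 to 102, with 2.23. The *ATG12* range within SKOV3 spans the 437 CPM of the control and the 238 of SIVA-D160N, and its lowest library was still above every library of the other lines.

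MDA-MB-231 had 29 members at an FDR under 0.05 (background 67.5%) and 3 past both thresholds (22.6%). *WIPI1* was higher there (log2 fold change 2.13), at 59.7 ± 19.4 CPM against 8.26 to 25.1, and so was *NBR1* (1.66), at 346 ± 58.9 CPM against 80.1 to 145. *WIPI2* (1.38), *MAP1LC3B* (1.18) and the lipid kinase gene *PIK3C3* (1.00) were higher below the fold threshold. *CTSB* (-1.16), *GLA* (-1.18) and *ATG12* (-1.24) were lower.

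HCC1954 had 25 members at an FDR under 0.05 (background 69.5%) and 3 past both thresholds (25.6%). *LAMP2* was higher there (1.64), at 361 ± 41.3 CPM against 83.3 to 146, and *ATG4A* (1.55) was at 28.6 ± 4.32 CPM against 6.90 to 13.8. *ULK2* was at 2.18, and *CTSD* (1.48) and *GABARAPL1* (1.17) were higher below the fold threshold. Without the HCC1954 control library 3 members passed both thresholds (background 24.9%) and 21 of 44 an FDR under 0.05.

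OVCAR8 had 25 members at an FDR under 0.05 (background 68.1%), 19 of them lower, and 4 past both thresholds (22.8%), all of them lower. These were *ULK2* (-2.36), *GABARAPL2* (-1.68), *WIPI1* (-1.63) and *CTSD* (-1.56). *GABARAPL2* was at 21.1 ± 0.87 CPM in OVCAR8 against 66.8 to 69.6 in the other lines, which did not differ beyond their spread. *CTSD* was at 31.2 ± 3.29 CPM against 62.4 to 155. *WIPI1* passed the FDR but not the fold threshold without the control libraries, with a log2 fold change of -1.48. *ATG5* was at the other end, with line means of 51.0 to 57.2 CPM and SDs of 2.06 to 6.28, so the order of its lines did not exceed the spread within them.

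Genes outside the 44 were counted on other lists of the same pathways in SIVA-D160N vs control. By edgeR's quasi-likelihood test 0 genes on any of these lists passed an FDR of 0.05. The background for the counts below is all genes, of which 51.7% were lower and 14.2% had an unadjusted p under 0.05 by that test. The other lysosomal hydrolases were lower in 28 of 32, with a median of -0.15, 6 lower and 1 higher at an unadjusted p under 0.05. The 3 with the smallest p were *GAA* (acid alpha-glucosidase, -0.53), *CTSV* (cathepsin V, 0.38) and *PSAP* (the saposin precursor, -0.34). Other autophagy genes were lower in 14 of 21 (median -0.10), led by *TMEM41B* (-0.47), *PIK3R4* (0.28) and *ATG16L2* (-0.61), and other lysosomal membrane and transport genes in 15 of 21 (median -0.06), led by *GRN* (progranulin, -0.35), *LAMP3* (-1.06) and *OSTM1* (0.22). The V-ATPase subunits, which acidify the lysosome, were 8 higher and 7 lower, with a median of 0.01 and 0 at an unadjusted p under 0.05, and those of smallest p were *ATP6V1A* (0.14), *ATP6V0A1* (-0.14) and *ATP6V1C1* (0.11). Selective autophagy receptors outside the members were lower in 9 of 15 (median -0.05), led by *CCPG1* (-0.50), *FKBP8* (-0.26) and *STBD1* (0.74, matched by gene ID to the row of its read-through with *FAM47E*).

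Genes of nutrient sensing at the lysosome were lower in 18 of 27, with a median of -0.05. The lowest were *DDIT4* (-1.37) and *SESN2* (-1.19), inhibitors of mTORC1 that are also on the list of the integrated stress response, and *MTOR* itself was at 0.26. The integrated stress response is driven by ATF4 and is known to raise several autophagy genes. It had negative values in 12 of 12 genes, beside 51.7% of all genes. Of these 12, 10 had an unadjusted p under 0.05, beside 14.2% of all genes, and the list median was -0.96. Its smallest p-values belonged to *CHAC1* (-1.44), *ASNS* (-1.02) and *DDIT4*. The summed level of this list in MDA-MB-231 was 4320.0 CPM in the control, 3224 in SIVA-WT and 1792 in SIVA-D160N. In HCC1954 it was 1334, 1259 and 786 CPM. In OVCAR8 the sums were 1246, 1117 and 1094 CPM and in SKOV3 1196, 839.5 and 731 CPM. The sum was thus lower in SIVA-D160N than in control in every line, with 1 library per line and condition. On a chosen list of 12 members linked to ATF4 or CHOP, 9 were lower and 3 higher, with a median of -0.12. On that list 0 had an unadjusted p under 0.05. It leaves out *ULK1* and *GABARAPL1*, the members with the lowest values, and may not hold every member that these factors act on. The 8 proliferation genes all had positive values in SIVA-D160N, with a median of 0.26 and 7 at an unadjusted p under 0.05, led by *BUB1* (0.26), *CCNA2* (0.34) and *AURKA* (0.31). The part of the stress response and of proliferation in the members' values was not tested.

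**Figure D5:**
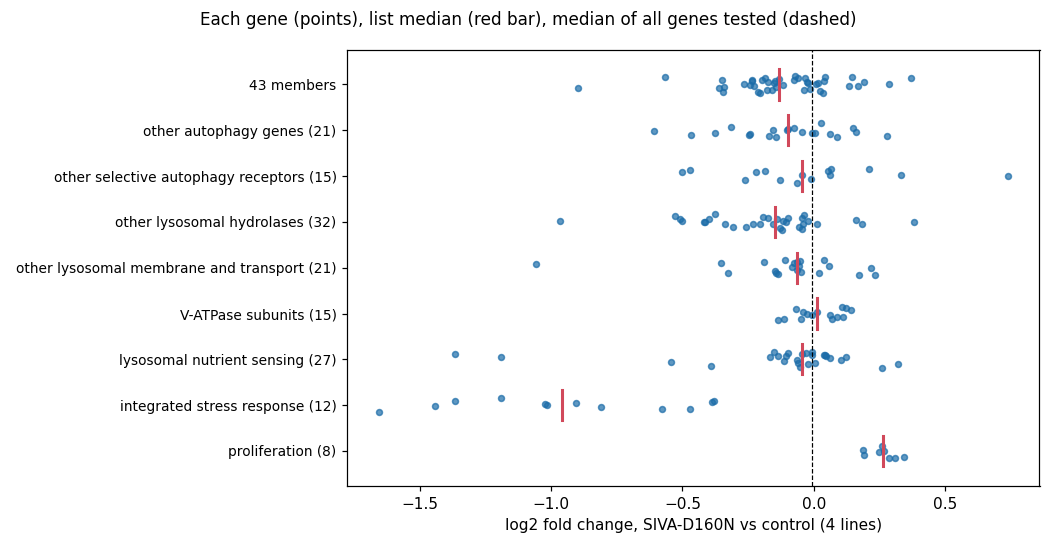
Fitted log2 fold change in SIVA-D160N vs control (x axis) of each gene (points, with random vertical scatter) in the 43 members and in 8 other lists (rows, number of genes tested in brackets), with the list median (red bar) and the median of all genes tested (dashed line, -0.01). The members' median was -0.13, and the integrated stress response lay farthest from 0 with a median of -0.96.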

How the data were processed

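RNA of 12 libraries, 4 cell lines in 3 conditions, was sequenced from a stranded mRNA kit. Per the labels' processing notes the reads were checked with FastQC and aligned to GRCh38 with STAR 2.5.3a. The authors deposited whole-number read counts per gene without normalization, and also normalized values, which were not used here. The annotation release and the strand setting of the counting are not given in the sources used here.

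The deposited counts were fitted with edgeR 4.0.16 in R 4.3.3 (TMM normalization, filterByExpr by condition, glmQLFit and glmQLFTest) over all 12 libraries with terms for line and condition. All 17211 genes that passed the filter were fitted together, p-values were adjusted over them by Benjamini-Hochberg, and a call needed an FDR under 0.05 and a log2 fold change of at least 1.5 in size (FDR alone for any line and for the interaction). SE is the fold change divided by the square root of F. Within-line log2 ratios used a prior count of 2. Members are named by 1 rule: in a condition contrast the 8 with the smallest p plus *ULK1* and *GABARAPL1*, in a line contrast up to 4 highest and 4 lowest past both thresholds, at least 1 per role, and from the other lists the 3 with the smallest p. Further values are printed where a role group is described or a sentence turns on them, and were chosen after they were seen. The members and the lists were chosen with earlier results of these data known. Of the 194 list entries, 4 were matched through the gene ID and 2 could not be placed on 1 row of the table.

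The line pairs the libraries, since the 3 libraries of a line come from the same cell line: deviations from the condition means correlated at 0.929 to 0.968 between libraries of one line and at -0.447 to -0.191 between lines. No 2 of the 66 pairs of libraries held identical counts. The p-values measure the spread between these libraries and lines. Limits from counts cover counting error only. DESeq2 1.42.0, limma-voom (limma 3.58.1), other filters, other normalization and leaving out libraries were tried as alternatives. Coordinates and promoters are from RefSeq, GRCh38.p14. Exonic overlaps are from GENCODE lifted to GRCh37 and give shares only. Protein sequences were not used here. Plots used matplotlib 3.10.9 under Python 3.11.15.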

Additional observations from a re-analysis of the deposited data

Results flagged for a closer look

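A line was looked at again where its within-line log2 ratio stood apart from those of the other 3 lines by more than Dixon's critical value for 4 samples. This was done for 43 members in 3 contrasts, 129 sets in all, and 7 stood out (5.43%), close to the 1 in 20 that chance gives. In SIVA-D160N vs control, *ATG7*, an enzyme that activates ATG8 for conjugation, was at 0.18 in HCC1954 where the other lines were at -0.25 to -0.22, and *MCOLN1* was at -0.46 in OVCAR8 where they were at 0.15 to 0.26. In SIVA-WT vs control, *ULK1* was at -0.67 in MDA-MB-231 (0.04 to 0.18 elsewhere) and *MAP1LC3B* at -0.91 in MDA-MB-231 (0.07 to 0.23 elsewhere). In the same contrast *ATG4D* was at -0.45 in HCC1954 (-0.12 to -0.08 elsewhere), which rests on the control library without *SIVA1* counts, and *NEU1* was at 0.41 in SKOV3 (-0.34 to -0.21 elsewhere). In SIVA-D160N vs SIVA-WT, *WIPI2* was at -0.10 in MDA-MB-231, a small value beside -0.016 to -0.00078 in the other lines. The MDA-MB-231 libraries were the ones that stood out in 3 of the 7 sets, HCC1954 in 2, OVCAR8 in 1 and SKOV3 in 1.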

How the results depend on the processing

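The count of members called was 0 in the 3 condition contrasts under every alternative run: DESeq2, limma-voom, edgeR's likelihood ratio test, RLE size factors, 2 other filters, no fold threshold counted with edgeR's quasi-likelihood test, no replicate block, each line left out (0 to 0), and the HCC1954 control library left out, which was added after seeing the data. With no replicate block, 0 members also had an unadjusted p under 0.05 in any of the 3 contrasts, in place of 8, 0 and 5. Without a fold threshold the line contrasts gave 29 members for MDA-MB-231, 25 for HCC1954, 25 for OVCAR8 and 32 for SKOV3, since the threshold removes smaller differences. Leaving out the libraries of 1 condition gave 3 to 4 members for MDA-MB-231, 3 to 4 for HCC1954, 3 to 4 for OVCAR8, 3 to 3 for SKOV3 and 36 to 41 for any line, where the same fits called 20.8% to 22.3%, 24% to 25%, 21.1% to 22.5%, 21.9% to 22.5% and 83.3% to 92.9% of all genes. The tissue difference had 0 members at an FDR under 0.05 without the HCC1954 control library and without each line (0 to 0), which were added after seeing the data. Within-line counts of members 2-fold apart were the same with a prior count of 0.5 and with members of at least 1 CPM in both libraries. Of the named members, *ULK1* in SIVA-WT vs control changed sign without MDA-MB-231, to 0.10, and ran from -0.19 to 0.10 over the lines left out. Direction held in all other alternatives for named members, and single calls that moved with the test are given beside *GABARAPL1*, *ULK1*, *CTSB* and *WIPI1*. With 1 library per line and condition, the fit rests on the spread across 4 lines, and differences that occur in 1 line cannot be told apart from the noise of that library. *ULK2* in MDA-MB-231 and *MAP1LC3A* rest on few counts.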
